A study of Mus musculus with 24 samples.

Results

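The genes of double-stranded RNA sensing and editing described here were chosen by name and followed in mouse embryonic stem cells: Adar (ENSMUSG00000027951, chromosome 3), Mavs (ENSMUSG00000037523, chromosome 2), Eif2ak2 (ENSMUSG00000024079, chromosome 17), Ifih1 (ENSMUSG00000026896, chromosome 2), Ddx58 (ENSMUSG00000040296, chromosome 4, now named Rigi) and Dhx9 (ENSMUSG00000042699, chromosome 1). They are 6 of 56941 genes in the deposited table, and their rows were found by Ensembl ID. Of these 6, 5 passed the filter on low levels and Ifih1 did not. EU (5-ethynyl uridine) is built into RNA as it is made, and the RNA that carried it was captured and sequenced. The cells were of the E14TG2a line and were either Alkbh5 del-cIDR (Alkbh5, an RNA m6A demethylase, lacking its C-terminal disordered region), Alkbh5 KO or WT, each given EU at 1 mM and harvested after 10, 20, 40 and 60 min. All of them were kept in serum medium with LIF, PD0325901 and CHIR99021, and had Drosophila RNA added as a spike-in. Each of the 12 groups had 2 libraries, 24 in all.

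Long double-stranded RNA is a sign of viral infection, but cells also make it from their own repeats and overlapping transcripts. ADAR changes adenosine to inosine in such RNA, RIG-I (from Ddx58) and MDA5 (from Ifih1) sense it and signal through MAVS on mitochondria to interferon genes, PKR (from Eif2ak2) binds it and halts translation by phosphorylating eIF2, and the helicase DHX9 unwinds it. Pluripotent stem cells are known for a weak interferon response, and m6A, the mark that ALKBH5 removes from RNA, is known to affect RNA structure.

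Several of these genes are themselves interferon targets, and the stretches around the transcription start that carry matches to the core of the interferon-stimulated response element are shown for that reason. The core, GAAA followed after any 2 bases by a further GAAA, was searched on both strands of RefSeq windows (GRCm38.p6) of 300 bases, 250 before to 50 after each start. It stood in 3 of the 6 genes and in 3.99% of 27025 genes with a window. Capitals mark the match, each sequence reads 5′ to 3′ on the strand of its gene, and the Ddx58 match lies on the other strand. Counted from the start, these matches began at 32 (Ifih1), 2 (Ddx58) and 18 (Eif2ak2), so after it and not before.
Ifih1 (chr2:62646206-62646235): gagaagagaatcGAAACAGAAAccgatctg
Ddx58 (chr4:40239804-40239833): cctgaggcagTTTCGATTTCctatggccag
Eif2ak2 (chr17:78882535-78882564): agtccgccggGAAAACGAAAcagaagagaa
A shorter string, AAACGAAA, was chosen after the sequences had been seen. It stood in Adar, Ddx58 and Eif2ak2, in the last of these overlapping the match above, and in 0.64% of all genes with a window.
Adar (chr3:89730737-89730766): cttttcaaggAAACGAAAgtgaactctggg
Ddx58 (chr4:40239865-40239894): ctaggttcagAAACGAAActggatccccgc
The shorter string began at 29 in Adar, after the start, and at −59 in Ddx58, before it. The windows of Mavs and Dhx9 held neither string.

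The libraries held 3085729 to 21899072 reads over genes and 6037 to 23382 spike-in reads. A level is a gene's reads scaled to 11714 spike-in reads. A relative level is log2(level + 1) minus the median of the 22440 tested genes in that library. Relative to WT the median gene lay 0.15 higher in del-cIDR and 0.30 higher in KO on the deposited spike-in scale, so differences below are relative levels unless that scale is named. All 10 listed pluripotency markers had a mean level of 10 or more over all 24 libraries, their sum being 10318 to 91884 in del-cIDR, 22633 to 93849 in KO and 14431 to 88259 in WT libraries. Of 8 extraembryonic endoderm markers 6 reached that level, with sums of 1099 to 8055 in del-cIDR, 2627 to 10063 in KO and 1552 to 9160 in WT. Most of these sums was Lama1 and Col4a1, with mean levels of 2428 and 2742 over all libraries. Dab2 had 135, Gata4 52.8, Gata6 15.7, Sox17 10.2, Sox7 3.8 and Foxa2 2.1. Of 9 fibroblast markers 4 reached a mean level of 10, with sums of 49.7 to 311 in del-cIDR, 57.7 to 243 in KO and 46.6 to 263 in WT. Of 8 leukocyte markers 3 did, with sums of 115 to 817 in del-cIDR, 205 to 633 in KO and 127 to 625 in WT, and no marker of these lists was at 0 in all libraries. Relative levels of these markers differed in some cases (limma, adjusted p under 0.05). Of the pluripotency markers 1 was higher and 3 lower in del-cIDR, and 1 was higher and 4 lower in KO; on the deposited scale the calls were 2, each a marker higher in KO. The endoderm marker Dab2 was lower in del-cIDR (−1.62) and in KO (−0.34), and Lama1 in del-cIDR (−0.57). In del-cIDR Gata6 (1.04), Gata4 (0.34) and Sox17 (0.15) were higher and Col4a1 (−0.17) lower without passing. Of the fibroblast markers Pdgfrb was higher in del-cIDR (0.68) and Pdgfra lower in KO (−0.56), and the leukocyte marker Csf1r was lower in KO (−0.35). The part of these markers in the results was not tested. Alkbh5 reads were present in all genotypes, at relative levels of 2.55 to 3.70 in del-cIDR, 2.67 to 3.39 in KO and 3.25 to 4.19 in WT. It was lower than in WT by −0.46 ± 0.06 in del-cIDR (SE; limma, adjusted p = 0.000217) and by −0.60 ± 0.06 in KO (limma, adjusted p = 1.26e-05), and whole-gene sums cannot check either edit. Nothing in the labels says that a genotype is more than 1 clone or that libraries are separate cultures, so p-values measure the spread between libraries only.

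The 6 genes spanned a wide range of nascent RNA. Per kilobase of exon, Dhx9 was far the highest, with a mean level of 1366 in del-cIDR, 1318 in KO and 1250 in WT, above about 98.7% of tested genes in WT. Eif2ak2 followed with 286 in del-cIDR, 284 in KO and 218 in WT per kilobase. Adar had 189 in del-cIDR, 223 in KO and 167 in WT per kilobase, and Mavs had 159, 155 and 135 in the same order of genotypes. The RIG-I gene Ddx58 had 18.0 in del-cIDR, 16.8 in KO and 16.6 in WT per kilobase. The MDA5 gene Ifih1 had 0.45 in del-cIDR, 0.18 in KO and 0.24 in WT per kilobase.

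The order was the same per kilobase of the whole gene span, a length that also counts introns. Dhx9 lay above Eif2ak2 in 18 of 18 libraries with both reads known. Mavs lay above Ddx58, and Ddx58 above Ifih1, in 24 of 24. Eif2ak2 exceeded Adar in 22 of 22 libraries per kilobase of exon but in 19 per kilobase of span. Adar and Mavs, whose order held in 15 of 22 libraries per exon length and in 14 per span, were not set apart beyond the spread of the libraries.

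**Figure D1:**
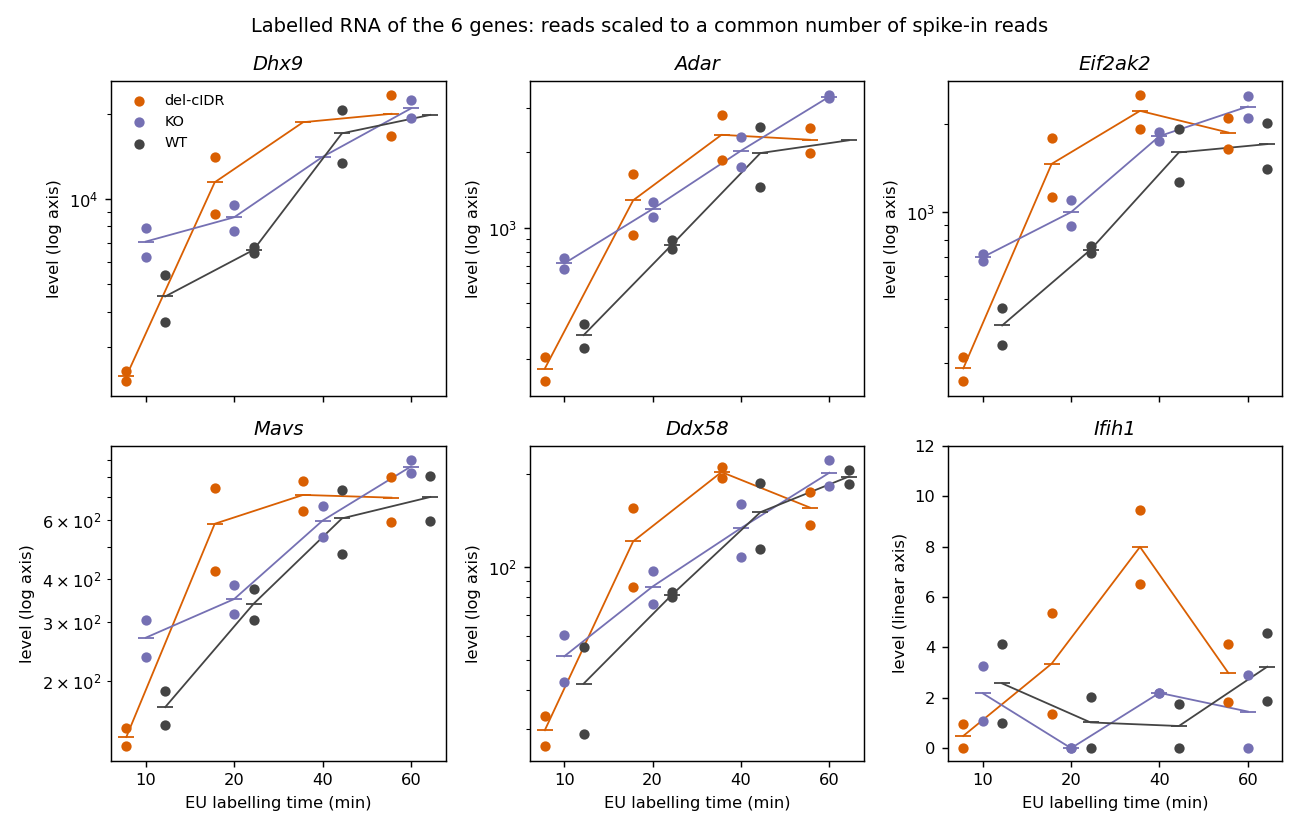
Levels (reads per 11714 spike-in reads, log axis, linear for Ifih1) of the 6 genes against EU labelling time in minutes; points are libraries, bars with lines the mean of both libraries, in del-cIDR, KO and WT. Groups with a bar but no points had reads that could not be split between both libraries (Adar WT 60 min, Dhx9 WT 60 min and del-cIDR and KO 40 min); Ifih1 stays below a level of 10 in every library.

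In KO cells, nascent RNA of the editing enzyme gene Adar and of the PKR gene Eif2ak2 rose against WT, by 1.16-fold and 1.12-fold. Ddx58, Dhx9 and Mavs did not pass the test. Of the 5 genes tested, 2 were called in KO (40%), both higher, against 30.1% of all 22440 tested genes, of which 14.6% were called higher and 15.5% lower (3278 and 3481 genes, against 4907 and 591 on the deposited scale). A share of 2 in 5 is near that background. Where libraries are said below to lie apart at 1 labelling time, that is a description only. Sets of 2 libraries can separate with no difference between groups, and the share over all tested genes is not given. The libraries are bulk RNA, in which fewer cells with a transcript and less of it per cell cannot be told apart, and both mutants share the WT libraries. The members' median difference was −0.049, against −0.013 over all tested genes.

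Adar, the main enzyme of adenosine-to-inosine editing, had relative log2 levels of 3.36 and 3.23 in KO (10 min), 3.61 and 3.61 (20 min), 3.56 and 3.72 (40 min) and 3.88 and 3.95 (60 min). In WT it had 3.04 and 3.08 (10 min), 3.22 and 3.46 (20 min), 3.47 and 3.62 (40 min), and 3.67 at 60 min, where the reads could not be split and 1 value stands for both libraries. The KO libraries lay above those of WT at 10 and 20 min and overlapped with them at 40 min. At 60 min both KO libraries lay above the single WT value. The difference was 0.21 ± 0.06 (SE, mean of 4 times, 95% interval 0.074 to 0.35; limma, adjusted p = 0.0232), and 0.52 on the deposited scale (limma, adjusted p = 0.0415). It did not pass with group sums (1 value a group) or with no filter on low levels. The call was lost without the 10 min libraries (0.21, limma, adjusted p = 0.0567), and without KO 10 min A (0.20), WT 20 min A (0.18), KO 40 min B (0.19) or WT 40 min A (0.19), at limma adjusted p-values of 0.0503 to 0.0559; over all 24 omissions they ran from 0.0149 to 0.0559.

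Eif2ak2, whose product PKR is itself switched on by double-stranded RNA, had relative log2 levels of 3.35 and 3.14 in KO (10 min), 3.30 and 3.41 (20 min), 3.57 and 3.43 (40 min) and 3.46 and 3.31 (60 min). In WT it had 3.20 and 3.14 (10 min), 3.11 and 3.15 (20 min), 3.28 and 3.24 (40 min) and 3.22 and 3.33 (60 min). Both KO libraries exceeded both WT libraries at 20 and 40 min, and the groups overlapped at 10 and 60 min. The difference was 0.16 ± 0.05 (SE, 95% interval 0.054 to 0.27; limma, adjusted p = 0.0247), and 0.47 on the deposited scale (limma, adjusted p = 0.0350). With group sums and with no filter on low levels it did not pass. It no longer passed without KO 10 min A (0.14), KO 20 min B (0.15), KO 40 min A (0.14), WT 40 min B (0.16), KO 60 min A (0.14) or WT 60 min A (0.15), with limma adjusted p-values of 0.0540 to 0.0638; over all 24 omissions they ran from 0.0138 to 0.0638.

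Ddx58, the sensor of RNA ends, had 78 and 37 reads in KO (10 min), 111 and 50 (20 min), 98 and 145 (40 min) and 185 and 125 (60 min). WT had 110 and 28 reads of it (10 min), 123 and 81 (20 min), 130 and 156 (40 min) and 196 and 180 (60 min). Its relative log2 levels ran from −0.61 to −0.038 in KO and from −0.39 to 0.31 in WT, apart at 10 and 60 min and overlapping at 20 and 40 min. At 10 min the nearest values were −0.400 in KO and −0.390 in WT. The difference of −0.24 ± 0.09 (SE, 95% interval −0.43 to −0.045) did not pass after adjustment (limma, adjusted p = 0.0602), and on the deposited scale its sign turned, to 0.073. It passed with a pseudocount of 10 (−0.22, limma, adjusted p = 0.0429), without WT 10 min B (−0.30, limma, adjusted p = 0.0115) and without KO 40 min B (−0.28, limma, adjusted p = 0.0403); over the 24 omissions the adjusted p-values ran to 0.141.

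The adaptor gene Mavs, at relative log2 levels of 1.80 to 1.98 in KO and 1.84 to 2.09 in WT, differed by −0.049 ± 0.046 (SE, 95% interval −0.15 to 0.051; limma, adjusted p = 0.478), with 0.26 on the deposited scale. The helicase gene Dhx9 differed by −0.091 ± 0.050 (SE, 95% interval −0.20 to 0.020; limma, adjusted p = 0.210), with 0.22 on the deposited scale.

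**Figure D2:**
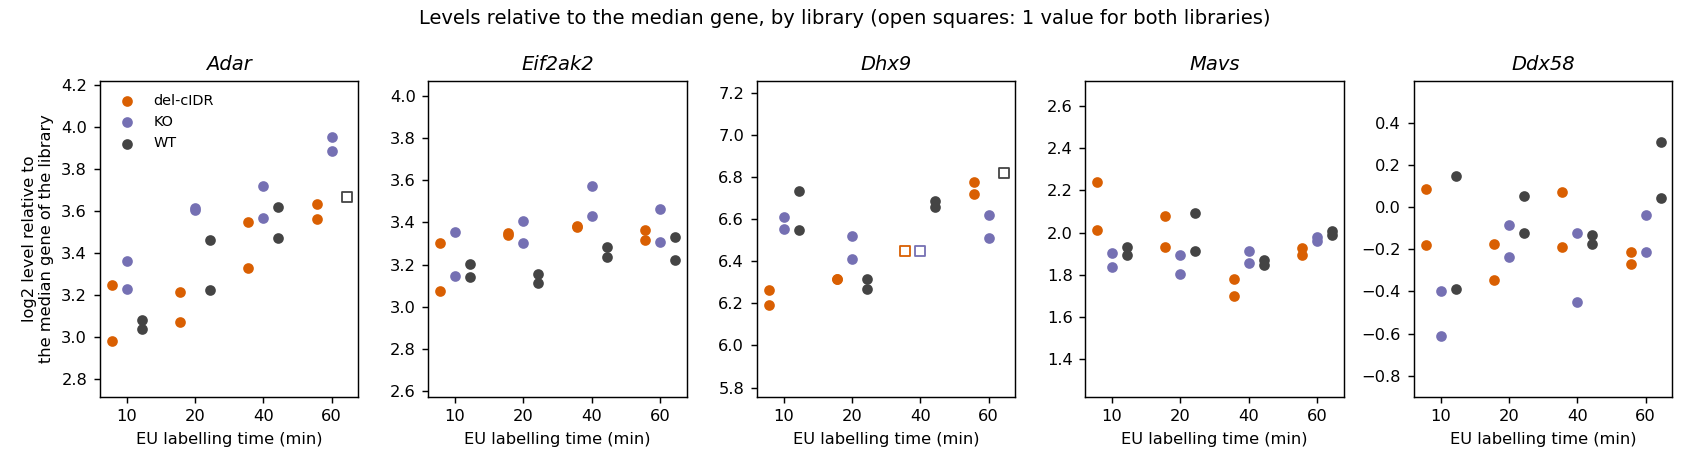
Relative log2 level (log2 level minus the median tested gene of the library) of the 5 tested genes against EU labelling time in minutes, in del-cIDR, KO and WT; points are libraries, open squares 1 value for both libraries, and every panel spans the same range. Adar KO points lie above those of WT except at 40 min, where they overlap, and Adar climbs with labelling time in all genotypes.

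In del-cIDR cells, 1 of the 5 tested genes changed against WT: the helicase gene Dhx9 fell to 0.89-fold, relative to the median gene. Adar, Eif2ak2, Ddx58 and Mavs did not pass. That is 20% of those tested, against 25.2% of all tested genes, of which 10.4% were called higher and 14.9% lower (2325 and 3335 genes, against 1277 and 500 on the deposited scale). The members' median difference was −0.080, against −0.019 over all tested genes.

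Dhx9, which resolves RNA duplexes and RNA-DNA hybrids, had relative log2 levels of 6.19 and 6.26 in del-cIDR (10 min), 6.31 and 6.32 (20 min), a single value of 6.45 at 40 min, and 6.72 and 6.78 (60 min). In WT it had 6.73 and 6.55 (10 min), 6.27 and 6.31 (20 min), 6.69 and 6.66 (40 min), and a single value of 6.82 at 60 min. The del-cIDR libraries lay below both WT libraries at 10 min and overlapped with them at 20 min. At 40 min the single del-cIDR value lay below both WT libraries, and at 60 min both del-cIDR libraries lay below the single WT value. The 10 min gap of −0.41 was the widest of the 4. The mean difference was −0.17 ± 0.05 (SE, 95% interval −0.28 to −0.060; limma, adjusted p = 0.0290), but 0.00089 on the deposited scale (limma, adjusted p = 0.998), and −0.067 after quantile normalization (limma, adjusted p = 0.337). Nor did it pass with group sums or with no filter on low levels. The call was also lost without the 10 min libraries (−0.090, limma, adjusted p = 0.283) and without del-cIDR 20 min A (−0.17) or B (−0.17), WT 20 min B (−0.17), WT 40 min A (−0.17) or B (−0.17), or del-cIDR 60 min A (−0.16), at limma adjusted p-values of 0.0511 to 0.0631; over all 24 omissions they ran from 0.0168 to 0.0631.

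Eif2ak2 had relative log2 levels of 3.07 and 3.30 in del-cIDR (10 min), 3.34 and 3.35 (20 min), 3.38 and 3.38 (40 min) and 3.36 and 3.32 (60 min). These were above both WT libraries at 20 and 40 min and overlapped with WT at 10 and 60 min. The mean difference of 0.10 ± 0.05 (SE, 95% interval −0.0039 to 0.21) did not pass (limma, adjusted p = 0.152), although it did after quantile normalization (0.15, limma, adjusted p = 0.0458).

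Adar in del-cIDR differed from WT by −0.080 ± 0.064 (SE, 95% interval −0.22 to 0.058; limma, adjusted p = 0.401), and by 0.091 on the deposited scale. Ddx58 differed by −0.12 ± 0.09 (SE, 95% interval −0.31 to 0.072; limma, adjusted p = 0.363), and by 0.052 on the deposited scale. For Mavs the difference was 0.0030 ± 0.046 (SE, 95% interval −0.097 to 0.10; limma, adjusted p = 0.974). Its separate times ran from 0.21 at 10 min to −0.12 at 40 min.

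The 2 mutants were also set against each other. Whether deleting the C-terminal region acted like losing the protein was not tested. Adar was lower in del-cIDR than in KO, at 0.82-fold, and it was the 1 gene of the 5 called (20%, against 43.4% of all tested genes). Of those, 20.9% of tested genes were higher and 22.5% lower (4694 and 5042 genes, against 1474 and 3826 on the deposited scale). Its relative log2 levels in del-cIDR were 2.98 and 3.25 (10 min), 3.07 and 3.21 (20 min), 3.33 and 3.55 (40 min) and 3.63 and 3.56 (60 min). They lay below both KO libraries at 20, 40 and 60 min and overlapped with them at 10 min. The difference was −0.29 ± 0.06 (SE, 95% interval −0.42 to −0.16; limma, adjusted p = 0.00150). This call held in all 24 fits with 1 library left out (−0.33 to −0.26) but not on the deposited scale (−0.43, limma, adjusted p = 0.0743). The intervals of the other genes were −0.17 to 0.049 for Eif2ak2, −0.074 to 0.31 for Ddx58, −0.048 to 0.15 for Mavs and −0.19 to 0.031 for Dhx9. On the deposited scale Ddx58 (−0.020, against 0.12 relative) and Mavs (−0.085, against 0.052 relative) turned sign.

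**Figure D3:**
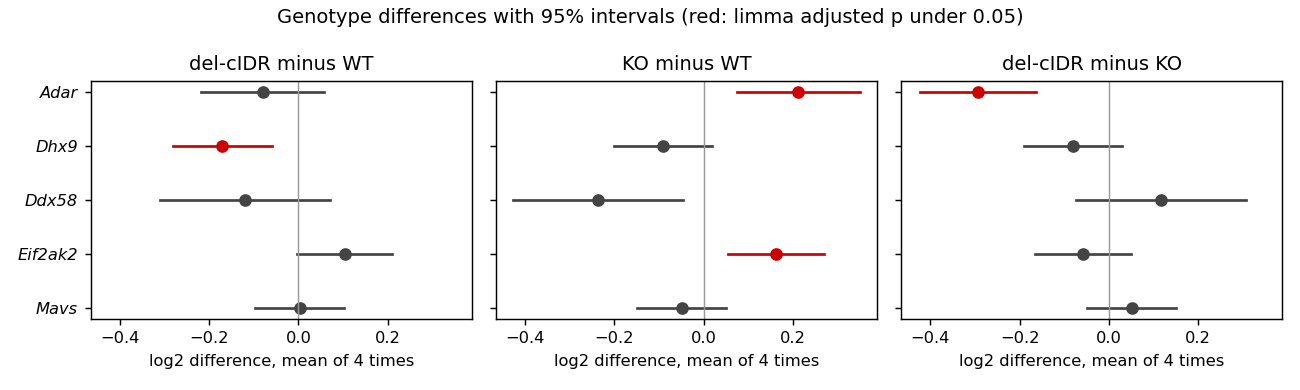
Difference in relative log2 level, mean of 4 labelling times, with 95% intervals, for del-cIDR minus WT, KO minus WT and del-cIDR minus KO; red marks a limma adjusted p under 0.05. Adar in KO against WT (0.21), in del-cIDR against KO (−0.29), Eif2ak2 in KO (0.16) and Dhx9 in del-cIDR (−0.17) passed; on the deposited scale Adar in del-cIDR against WT, Dhx9 in both mutants against WT, Ddx58 in all 3 comparisons, and Mavs in KO against WT and in del-cIDR against KO take the other sign.

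Labelled RNA gathered with time, with a median slope of 0.84 log2 units per doubling of labelling minutes on the deposited scale. Slopes of the members are those of relative levels, on which the median slope over tested genes was 0.038. The relative level of Adar rose by 0.21 ± 0.03 per doubling (SE, mean of 3 genotypes, limma, adjusted p = 1.66e-05), above 83.0% of tested genes. Dhx9 rose by 0.089 ± 0.020 (limma, adjusted p = 0.00327), above 60.7%. Eif2ak2 rose by 0.060 ± 0.021 (limma, adjusted p = 0.0241), above 54.7%, so its slope was near the middle of tested genes. These are 3 of 5 genes, all rising, against 54.5% of tested genes called, 35.2% rising and 19.3% falling. Ddx58 had a slope of 0.051 ± 0.037 (limma, adjusted p = 0.259) and Mavs one of −0.024 ± 0.019 (limma, adjusted p = 0.314). With quantile normalization the slope of Adar was 0.078 (limma, adjusted p = 0.0395), while Dhx9 turned to −0.031 (limma, adjusted p = 0.193) and Eif2ak2 to −0.071 (limma, adjusted p = 0.0108), so their pace relative to other genes depends on the scaling. With group sums the slopes of Dhx9 (0.089, limma, adjusted p = 0.144) and Eif2ak2 (0.062, limma, adjusted p = 0.128) did not pass. That of Eif2ak2 did not pass without the 10 min libraries either (0.043, limma, adjusted p = 0.265). Nor did it without del-cIDR 10 min A (0.046), KO 10 min B (0.048), WT 10 min B (0.056), KO 60 min A (0.052) or WT 60 min B (0.055), at limma adjusted p-values of 0.0538 to 0.0786; over all 24 omissions they ran from 0.00760 to 0.0786.

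Within single genotypes, 42.9% of tested genes had a called slope in del-cIDR, 24.2% in KO and 33.8% in WT. The Adar slope was 0.20 ± 0.04 in del-cIDR (limma, adjusted p = 0.00272), 0.21 ± 0.04 in KO (limma, adjusted p = 0.00336) and 0.23 ± 0.05 in WT (limma, adjusted p = 0.00329). In the authors' deposited table, the Adar log2 ratio of 60 to 10 min was 3.03 in del-cIDR, 2.21 in KO and 2.58 in WT, against medians of 2.72, 1.67 and 2.09 over tested genes. Dhx9 had a slope of 0.18 ± 0.03 in del-cIDR (limma, adjusted p = 0.00115), −0.014 ± 0.034 in KO (limma, adjusted p = 0.810) and 0.095 ± 0.038 in WT (limma, adjusted p = 0.0748). Mavs had −0.11 ± 0.03 in del-cIDR (limma, adjusted p = 0.0133), 0.035 ± 0.033 in KO (limma, adjusted p = 0.483) and 0.0074 ± 0.033 in WT (limma, adjusted p = 0.889).

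An F test in limma asked whether a genotype difference itself varied with labelling time. None of the 5 genes passed, in either mutant, and 1 of them, Dhx9, was under an unadjusted 0.05 in both. Its limma adjusted p was 0.197 in del-cIDR and 0.566 in KO. Over all tested genes 463 (2.06%) passed in del-cIDR and 2 (0.00891%) in KO, so the slopes of Dhx9 and Mavs in the mutants are not shown to differ from WT. For del-cIDR against KO, a test added after the data were seen, 1040 genes (4.63%) passed and none of the 5 did, with limma adjusted p-values of 0.105 for Dhx9 and 0.173 for Mavs, both under an unadjusted 0.05. There Dhx9 passed with a pseudocount of 10 (limma, adjusted p = 0.0337). On the deposited scale, where 16155 genes passed, all of the 5 except Ddx58 did.

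Ifih1 was close to silent. Its libraries held 0 and 1 reads in del-cIDR (10 min), 2 and 4 (20 min), 7 and 7 (40 min) and 2 and 3 (60 min). In KO they held 2 and 2, 0 and 0, 2 and 2, and 0 and 2 reads at these times. In WT they held 2 and 4, 0 and 2, 2 and 0, and 2 and 4 reads. Summed over 8 libraries each this was 26 reads in del-cIDR, 10 in KO and 16 in WT, and 7, 5 and 6 libraries held any. With no filter on low levels the differences were 0.46 ± 0.39 for del-cIDR against WT (SE; limma, adjusted p = 0.577 over 44963 genes), −0.50 ± 0.39 for KO against WT (limma, adjusted p = 0.472) and 0.96 ± 0.39 for del-cIDR against KO (limma, adjusted p = 0.112). None passed after adjustment, and the last of them was under an unadjusted 0.05. Of all read numbers from 1 to 10 in the series 63.5% were even, so single reads may not be independent molecules.

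The genes most like each member were ranked by the Pearson correlation of relative levels over the 12 groups, among 15207 genes with a mean level of 50 or more. The groups share labelling times and library medians, so these values are descriptions. Nearest to Adar were Zfp512b (0.98), Rfx1 (0.97) and Sec24c (0.96). Nearest to Dhx9 were Elovl5 (0.96), Hspd1 (0.96) and Trip12 (0.95), and nearest to Eif2ak2 were Cblb (0.94), Rpgr (0.93) and Gm20445 (0.90). Ddx58 had BC025920 (0.84), Fanci (0.84) and Itpripl1 (0.83), and Mavs had Gm15965 (0.82), Elf3 (0.81) and Itm2c (0.81). Among the members themselves the correlations ran from −0.44 (Mavs and Eif2ak2) to 0.60 (Adar and Eif2ak2).

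Other genes that bind, sense or edit double-stranded RNA came next. Of 31 on the list 29 were tested, with 4 higher and 5 lower in del-cIDR (31% called, against 25.2% of all tested genes) and 2 higher and 2 lower in KO (13.8%, against 30.1%), and median differences of −0.13 and 0.0047. Spike-in scaling as deposited gave 2 calls in del-cIDR and 3 in KO, each of them higher and 0 lower (limma; unadjusted, 4 and 1 in del-cIDR and 8 and 0 in KO). Ddx60, a helicase linked to antiviral sensing, had mean levels of 16.8 in del-cIDR, 46.4 in KO and 21.5 in WT. It was lower in del-cIDR by −0.67 ± 0.16 (SE; limma, adjusted p = 0.00684) and higher in KO by 0.92 ± 0.16 (limma, adjusted p = 0.000526). Zbp1, a sensor of Z-form nucleic acid, rose in KO by 0.71 ± 0.20 (limma, adjusted p = 0.0134), at mean levels of 21.7 in KO and 10.0 in WT. The second editing enzyme gene, Adarb1, rose in del-cIDR by 0.59 ± 0.09 (limma, adjusted p = 0.000209), at mean levels of 767 in del-cIDR and 421 in WT.

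Genes of the oligoadenylate synthetase family, which make the activator of RNase L, did not move as a block. Oas1b was higher in del-cIDR by 0.91 ± 0.18 (limma, adjusted p = 0.00224) and Oas2 was lower there by −0.42 ± 0.12 (limma, adjusted p = 0.0188). Oas1a was lower in KO by −0.62 ± 0.10 (limma, adjusted p = 0.000365), and Zc3hav1, a zinc-finger antiviral gene, by −0.16 ± 0.05 (limma, adjusted p = 0.0364). On the deposited scale Oas1a (−0.31), Oas2 (−0.25) and Ddx60 in del-cIDR (−0.50) kept their sign without passing, and Zc3hav1 turned to 0.15. Oas genes are near-identical in parts, and how the authors' counting shared their reads is not given in the sources used here.

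Downstream of the sensors, all 33 genes of RIG-I-like receptor signalling on the list were tested, with 0 higher and 6 lower in del-cIDR (limma; 18.2%, against 25.2% of all tested genes) and 3 higher and 6 lower in KO (27.3%, against 30.1%). At an unadjusted p under 0.05, 2 were higher and 6 lower in del-cIDR. With the deposited scale 0 of the 33 passed in del-cIDR (limma, with 3 higher and 1 lower unadjusted), and 8 passed in KO, all higher (15 higher and 0 lower unadjusted). Rnf135, a ubiquitin ligase that activates RIG-I, was lower in del-cIDR by −0.71 ± 0.10 (SE; limma, adjusted p = 0.000149), at mean levels of 96.8 in del-cIDR and 139 in WT. Otub1 (−0.19 ± 0.05) and Rnf125 (−0.17 ± 0.06) were lower there too. The adaptor gene Tradd was lower in del-cIDR by −0.36 ± 0.10 (limma, adjusted p = 0.0171) and higher in KO by 0.38 ± 0.10 (limma, adjusted p = 0.0105). In KO, Tank, a scaffold of the TBK1 kinase, rose by 0.48 ± 0.11 (limma, adjusted p = 0.00326), Ikbkb, a kinase gene of NF-kappa-B signalling, rose by 0.29 ± 0.06 (limma, adjusted p = 0.00198), and Tbkbp1, a TBK1-binding protein gene, was lower by −0.45 ± 0.10 (limma, adjusted p = 0.00445).

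Of 30 listed interferon genes and interferon targets 19 were tested, and 11 (36.7%) did not pass the filter, against 60.6% of all genes in the table. That table counts every gene ID, of which 41013 had a value other than 0 in WT. Not tested were 6.45% of the other double-stranded RNA genes, 0% of the RIG-I-like receptor signalling genes and 6.25% of the stress response list. No library held a read of the interferon gene Ifnb1 or of Ifi44, and the interferon-induced genes Isg15 and Ifit3 had 8 and 7 reads over all 24 libraries. Among those tested, 2 were higher and 5 lower in del-cIDR (36.8%, against 25.2% of all tested genes) and 5 were higher and 5 lower in KO (52.6%, against 30.1%), with median differences of −0.14 and −0.062. As deposited, del-cIDR had 1 called higher and 0 lower (limma, 4 and 1 unadjusted) and KO had 5 called higher and 1 lower. Ifit2, which binds viral RNA, was lower in del-cIDR by −0.74 ± 0.22 (SE; limma, adjusted p = 0.0229) and higher in KO by 0.87 ± 0.22 (limma, adjusted p = 0.00748), at mean levels of 18.3 in del-cIDR, 54.4 in KO and 31.5 in WT. Irf9, a subunit of the factor that binds the response element above, was lower in del-cIDR by −0.45 ± 0.06 (limma, adjusted p = 0.000130), and Ifitm1 by −0.44 ± 0.12 (limma, adjusted p = 0.0180). The peptide transporter gene Tap1 was higher in del-cIDR by 0.48 ± 0.10 (limma, adjusted p = 0.00343). In KO the transcription factor gene Irf1 rose by 0.67 ± 0.11 (limma, adjusted p = 0.000277), while Xaf1 (−0.98 ± 0.09, limma, adjusted p = 2.58e-06) and Ifitm3 (−0.59 ± 0.16, limma, adjusted p = 0.0123) were lower. Of these, Ifit2, Irf9 and Ifitm1 in del-cIDR and Ifitm3 in KO did not pass on the deposited scale.

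Beside Eif2ak2, 15 genes of the eIF2 kinases and the stress response that follows eIF2 phosphorylation were tested, of 16 listed. In del-cIDR 2 were higher and 3 lower (33.3%, against 25.2% of all tested genes), and in KO 5 were higher and 2 lower (46.7%, against 30.1%), with median differences of −0.031 and 0.062. The kinase gene Eif2ak4 (GCN2) rose in del-cIDR by 0.34 ± 0.06 (SE; limma, adjusted p = 0.00122), and Ppp1r15b, which directs the eIF2 phosphatase, rose by 0.26 ± 0.04 (limma, adjusted p = 0.000627). In KO the kinase gene Eif2ak3 (PERK) rose by 0.49 ± 0.05 (limma, adjusted p = 5.18e-06) and the stress target Trib3 by 0.61 ± 0.12 (limma, adjusted p = 0.00112). Of the 5 subunits of the exchange factor eIF2B, Eif2b2 was lower in del-cIDR by −0.28 ± 0.08 and higher in KO by 0.61 ± 0.08. Eif2b5 was lower in del-cIDR by −0.24 ± 0.07 and in KO by −0.23 ± 0.07, Eif2b1 was lower in KO by −0.24 ± 0.07, and Eif2b3 and Eif2b4 passed in neither. In KO all 5 subunits had values above 0 on the deposited scale (0.068 to 0.92). There 0 genes of this list passed in del-cIDR (limma, with 2 higher and 0 lower unadjusted), and in KO 5 were higher, Eif2ak3, Trib3 and Eif2b2 among them, and 0 lower (limma, 10 and 0 unadjusted).

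**Figure D4:**
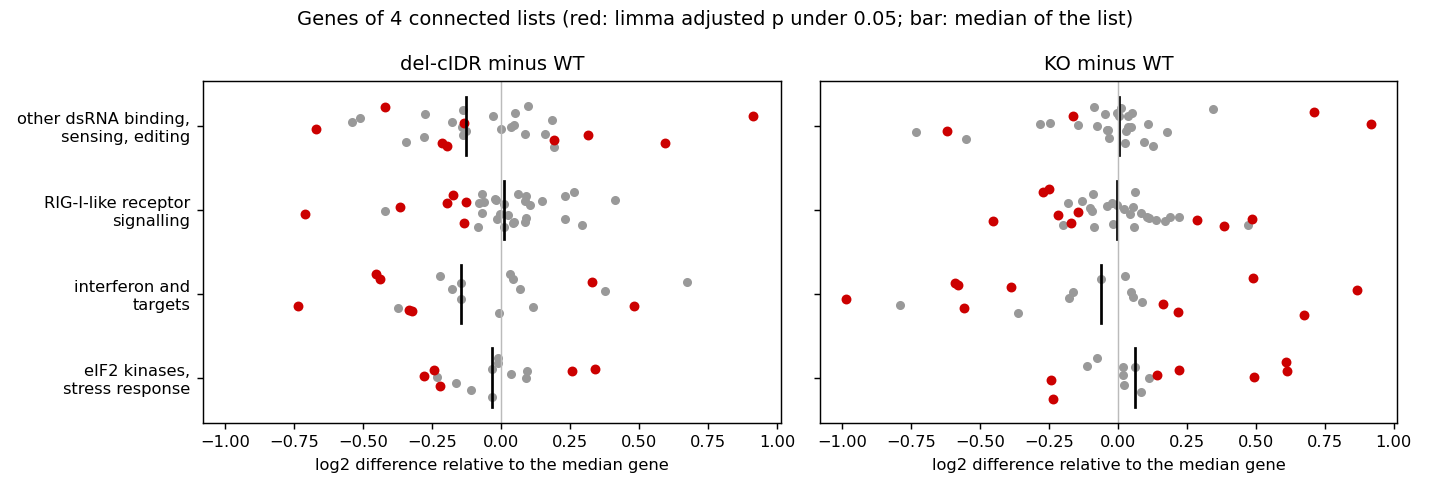
Differences in relative log2 level, del-cIDR minus WT and KO minus WT, for the tested genes of 4 lists connected with the members; points are genes (vertical position within a row is random), red a limma adjusted p under 0.05, bars the median of each list. Medians lie between −0.14 and 0.062, with called genes on both sides in 7 of the 8 rows; RIG-I-like receptor signalling in del-cIDR has 6 called genes, all lower, and 0 on the deposited scale (limma).

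Tested genes of chromosome 6 had a median difference of 0.40 in KO. Eif2ak3, higher there, lies on it, and so does Zc3hav1, lower there. Tested genes of chromosome 8, which holds Ddx60, Tradd and Ikbkb, had one of −0.14 in del-cIDR and 0.33 in KO. Those of chromosome 12, which holds Eif2b2, had one of −0.12 in del-cIDR. Those of chromosome X had one of 0.26 in del-cIDR. For chromosome 11, which holds Irf1, Xaf1, Rnf135 and Tbkbp1, the medians were −0.022 in del-cIDR and 0.0018 in KO. The part of position in these values was not tested. The chromosomes of the 5 tested members (1, 2, 3, 4 and 17) had medians between −0.053 and 0.0029 in both mutants. Left without genes of chromosomes 4, 6, 8, 11 and X, the differences of Adar and Eif2ak2 in KO and of Dhx9 in del-cIDR still passed. These 3 members lie on other chromosomes, so the omission changed library medians, the shared spread and the adjustment but not their reads. It is no test of position, and genes of chromosome 12 were kept.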

How the data were processed

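Mouse stem cell RNA labelled with EU was measured in 24 libraries. Per the submitters' processing notes, HISAT2, SAMtools, Picard and the build GRCm39 were used. For the read counter, its annotation and its use of strand the answer is not given in the sources used here. The authors deposited log2 ratios of each genotype at 20, 40 or 60 min to 10 min in 9 columns, scaled to spike-in and with both replicates combined. The column prefix ki was taken as del-cIDR because it is the remaining genotype. A second deposited table, on repeats, was not used here.

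A deposited ratio compares, between 2 times, the whole reads of both libraries over their spike-in reads, summed, times 40000, plus 1. Solving for whole numbers returned the counts of 99.99% of genes with a value other than 0 in every genotype. In 12.6% of tested genes at least 1 group's reads could not be split between its libraries (a split counted as clear within a log2 of 0.6 of the pair's median ratio, the next at least 0.8 away). Such a group entered as 1 value. The library with more spike-in reads is called A, the other B. Read counts cover counting error only.

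Tests covered genes whose mean level reached 10 and that had reads in 6 or more libraries, on log2(level + 1), which understates changes of low genes. The fit was made in R 4.3.3 (limma 3.58.1) with 1 coefficient per group, all 24 libraries sharing the spread, and Benjamini-Hochberg adjustment over all tested genes (threshold 0.05). Recovery and fit were tested on simulated data. There the fit found large changes but not small ones of about the size called in the members against WT. The members and lists were chosen with earlier results of these data known. Named are all 6 members, up to 4 genes with the largest called difference per list and mutant, and the 3 genes most like each member. Symbols, lengths and chromosomes came from GENCODE M21 and promoters from RefSeq (both GRCm38). The stress gene Ddit3 had no unambiguous match. Alternatives were the deposited scale, quantile normalization, a pseudocount of 10, no filter, and leaving out libraries, the 10 min time, chromosomes, or the split of reads.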

Additional observations from a re-analysis of the deposited data

How the results depend on the processing

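No paired analysis was possible because the columns carry no replicate numbers. On the deposited spike-in scale the differences reversed for Adar (0.091), Ddx58 (0.052) and Dhx9 (0.00089) in del-cIDR against WT, for Ddx58 (0.073), Dhx9 (0.22) and Mavs (0.26) in KO against WT, and for Ddx58 (−0.020) and Mavs (−0.085) in del-cIDR against KO; Adar in del-cIDR against KO no longer passed (−0.43), and the Mavs slope reversed (0.78). The reversals follow from the shift of all genes that centring removes. For Adar in del-cIDR against KO the SE was 0.17 on the deposited scale, against 0.06 for relative levels. With quantile normalization Dhx9 in del-cIDR no longer passed (−0.067), Eif2ak2 in del-cIDR did (0.15), and the slopes of Dhx9 (−0.031) and Eif2ak2 (−0.071) reversed. With a pseudocount of 10, Ddx58 in KO passed (−0.22), and Mavs in del-cIDR (−0.0022) and its slope (0.032) reversed. With no filter Adar (0.27) and Eif2ak2 (0.22) in KO and Dhx9 in del-cIDR (−0.11) no longer passed, and Mavs in KO (0.0086) and the Mavs slope (0.12) reversed. Without the 10 min libraries Adar in KO (0.21) and Dhx9 in del-cIDR (−0.090) no longer passed, while Mavs in del-cIDR (−0.067), Mavs (−0.016) and Dhx9 (0.011) in del-cIDR against KO reversed. Without chromosomes 4, 6, 8, 11 and X, which hold Ddx58, Dhx9 in del-cIDR against KO passed (−0.13) and Mavs in del-cIDR reversed (−0.0022). Group sums have fewer samples, 1 value a group. Their fit had only additive terms for genotype and labelling time, so variation of a genotype difference with time counted as spread. With group sums Adar (0.20) and Eif2ak2 (0.15) in KO and Dhx9 in del-cIDR (−0.18) no longer passed and Mavs in del-cIDR reversed (−0.0032). The slopes of Dhx9 (0.089) and Eif2ak2 (0.062) did not pass either, and the time dependence has no such fit. Where no construction is named, the cause was not tested.

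With 1 library left out, differences in del-cIDR against WT ran from −0.11 to −0.047 for Adar, −0.19 to −0.052 for Ddx58, −0.19 to −0.15 for Dhx9, 0.075 to 0.13 for Eif2ak2 and −0.026 to 0.032 for Mavs, whose sign turned in 7 of 24. In KO they ran from 0.18 to 0.24 for Adar, −0.30 to −0.17 for Ddx58, −0.11 to −0.068 for Dhx9, 0.14 to 0.19 for Eif2ak2 and −0.072 to −0.026 for Mavs.

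The fits below tested unlike numbers of genes: 22440 in the main fit, 44963 with no filter and fewer than 22440 without the chromosomes. Counts from them are therefore not comparable as shares. Called genes numbered 5660 in del-cIDR against WT, and 1777 on the deposited scale, 3344 with no filter, 3743 without those chromosomes and 2259 with group sums. They numbered 6759 in KO against WT, 3923 without the chromosomes and 3814 with group sums, and 9736 in del-cIDR against KO, 5300 as deposited and 6145 without the chromosomes. Slopes gave 12237 calls, 22288 as deposited and 27712 with no filter. Time dependence in del-cIDR gave 463 genes, but 1234 as deposited, 853 with a pseudocount of 10, 12 with no filter, 0 without 10 min (limma, 2992 unadjusted) and 68 to 795 with 1 library left out. In KO it gave 2 genes, but 0 as deposited (limma, 1209 unadjusted), 0 with quantile normalization (1598) and 0 without 10 min (2347), 4 with a pseudocount of 10, 1 with no filter, 1 without the chromosomes, and 0 to 64 (limma) with 1 library left out. Between del-cIDR and KO it gave 1040 genes, but 16155 as deposited, 3095 with a pseudocount of 10, 277 with no filter, 0 without 10 min (limma, 2406 unadjusted) and 225 to 1327 with 1 library left out. Depth limits Ifih1, with 0 to 7 reads a library, and Ddx58, with 28 to 208.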
